A study of Mus musculus with 35 samples.

Results

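The genes described here are 8 transcription factors of pancreatic and foregut identity, *Pdx1*, *Hnf4a*, *Foxa1*, *Foxa2*, *Foxa3*, *Gata6*, *Sox9* and *Nr5a2*, taken by name from a table of 53465 mouse genes. Each name matched 1 identifier. RNA-seq was performed on 35 libraries of mKate2+ tumor cells sorted from nude mice, 10 from primary pancreatic tumors after orthotopic injection, 11 from liver metastases after intrasplenic injection and 14 from lung metastases after tail-vein injection. The injected KC-shSmad4 cells are mouse pancreatic ductal adenocarcinoma (PDAC) cells that carry Ptf1a-Cre, a Cre-activated rtTA3 with the mKate2 reporter, and a doxycycline (Dox)-inducible shRNA against *Smad4*, so all groups share these alleles. Cre was driven by *Ptf1a*, a gene of pancreatic progenitors and acinar cells. By the labels, hosts stayed on Dox, which induces the shRNA (labelled Smad4OFF), or Dox was withdrawn 4 weeks after injection for the pancreas, 5 for the liver and 6 for the lungs (labelled Smad4ON). Cells were collected 7 or 14 days later. For day 7 there were 3 pancreas, 2 liver and 4 lung libraries labelled Smad4OFF, with 2, 3 and 2 labelled Smad4ON. For day 14 these numbers were 2, 3 and 4 under Smad4OFF with 3, 3 and 4 under Smad4ON. The cells were lines grown from primary tumors of this model, most of which had lost *Cdkn2a/b*, the hosts were female *Foxn1nu* mice aged 6 to 8 weeks, which lack a thymus, and the labels do not give the line behind a library. Nothing in the labels ties libraries to separate cultures, so P values measure the spread between these libraries.

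The FOXA proteins are pioneer factors of the forkhead family: they bind closed chromatin of endoderm-derived tissues and open it for other factors. PDX1 specifies the pancreas and the mature beta cell, SOX9 maintains pancreatic progenitors and ducts, GATA6 supports pancreatic and gut epithelium, HNF4A is a nuclear receptor of liver, gut and pancreas, and NR5A2 is a nuclear receptor that maintains acinar cells. In PDAC, GATA6, HNF4A and the FOXA factors are known as markers of the epithelial, classical type of tumor, which is set against a basal-like type.

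Promoter sequence of *Foxa1* and *Hnf4a* is shown, because *Foxa1* had the widest range of the 8 genes, as the ratio of highest to lowest, after the sparsely counted *Nr5a2*, and *Hnf4a*, the highest by median level per kilobase, is known to be transcribed from an upstream promoter used in pancreas and a downstream promoter used in liver. The sequences are from RefSeq promoter windows of GRCm38.p6, which had entries for 6 of the 8 genes and 10 start sites. The *Foxa1* stretch lies inside the annotated gene, since another transcript of it starts farther upstream, at 57546916. The sequences are written on the gene's strand, without any annotated exon of the gene, and capitals mark a match to a motif named below.

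Foxa1, chr12:57546122-57546361, minus strand, before the start site at 57546111: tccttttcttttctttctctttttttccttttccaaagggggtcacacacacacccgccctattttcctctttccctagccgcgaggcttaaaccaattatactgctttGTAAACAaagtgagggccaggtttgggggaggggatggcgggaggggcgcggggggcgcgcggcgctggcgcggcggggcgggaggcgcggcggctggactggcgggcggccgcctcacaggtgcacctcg
Hnf4a, chr2:163506607-163506807, plus strand, before the upstream start site at 163506857: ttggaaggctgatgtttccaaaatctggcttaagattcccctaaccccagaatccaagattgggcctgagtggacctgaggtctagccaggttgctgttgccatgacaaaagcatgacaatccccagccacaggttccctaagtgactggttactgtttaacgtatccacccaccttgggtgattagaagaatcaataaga
Hnf4a, chr2:163546943-163547154, plus strand, before the downstream start site at 163547155: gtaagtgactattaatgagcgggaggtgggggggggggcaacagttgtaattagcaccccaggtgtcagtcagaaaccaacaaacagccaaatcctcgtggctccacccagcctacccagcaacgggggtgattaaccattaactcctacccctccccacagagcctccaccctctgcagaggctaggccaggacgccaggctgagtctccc

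Motifs were searched on both strands in the 10 windows of 250 bases before and 50 after a start site, and 3 matches were found. The forkhead motif, TGTTTAC, lay at positions -141 to -135 from the *Foxa1* start site (in capitals above on the other strand), and 3.65% of all 32817 windows held it. The motif of GATA factors, AGATAAG, lay before the upstream *Nr5a2* start site and was held by 3.05% of windows. The KLF motif, GGGTGTGG, lay before *Foxa3* and was held by 3.56%. No match in the windows of these genes was found for the HNF4 motif CAAAGTCCA (in 0.475% of all windows), the SMAD motif GTCTAGAC (0.213%) or, for AP-1 proteins, the motif TGAGTCA (5.2%). The 3 matches lie in different windows. A match is a description of the letters and not evidence of binding. The 2 *Hnf4a* start sites lie 40298 bases apart, and counts per gene do not separate the transcripts that begin there.

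The depth was 11.9 to 43.6 M counts per library (median 19.4 M), which puts a floor of 3 counts at 0.0689 to 0.252 CPM, where CPM is the count scaled to the size of the library. Such floors cover counting error only. *Smad4* itself went against the labels: the 17 libraries labelled Smad4ON held 14.7 to 22.3 CPM of it, and the 18 labelled Smad4OFF held 68.3 to 147 CPM. Labels are therefore kept as labels, and each label difference is given as labelled Smad4ON against labelled Smad4OFF. If the labels were exchanged, the sign of every label difference and of every difference of label responses would turn, and each organ or day comparison given under one label would belong to the other. Markers of other cell types differed between organs. The 8 fibroblast markers summed to 9079 to 25166 CPM in the pancreas and to 159 to 4430 CPM in all metastases but 1 liver library. That library, replicate 2 of the liver labelled Smad4OFF on day 7, was labelled paired-end and held 36494 CPM. The 12 acinar markers summed to 842 to 4167 CPM in the pancreas, 482 CPM in the paired-end library and 3.17 to 18.5 CPM in the other metastases. The 6 tumor epithelium markers (*Krt7*, *Krt8*, *Krt18*, *Krt19*, *Epcam*, *Cdh1*) summed to 2538 to 7699 CPM in the pancreas, 3810 CPM in the paired-end library and 6142 to 16853 CPM in the other metastases, and all 6 had counts in every library. In bulk libraries, fewer cells of a type and less RNA per cell cannot be told apart. Finally, 10 libraries had counts on *mt-Co3*, a mitochondrial gene, and 25 had none, and all 10 pancreas libraries were among the latter.

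All 8 genes had counts in all 35 libraries. Per kilobase of transcript, the median level over the libraries was highest for *Hnf4a* at 58.5 CPM per kb (14.3 to 76.2), followed by *Sox9* at 49.8 (30.2 to 127), *Foxa2* at 26.4 (10.3 to 56.8), *Pdx1* at 20.0 (15.3 to 34.1) and *Gata6* at 9.38 (5.08 to 19.8). *Foxa1* had a median of 2.26 CPM per kb (0.555 to 24.3), *Foxa3* of 1.77 (0.461 to 4.58) and *Nr5a2* of 0.0749 (0.00523 to 0.341). The ranges of neighbours in this order overlapped except for the last step, as every *Nr5a2* value lay below every *Foxa3* value. *Nr5a2* rests on 1 to 32 counts per library and is close to the floor in several libraries. The genes lie at chromosome 12, 57540628 to 57546916, minus strand (*Foxa1*, ENSMUSG00000035451), chromosome 2, 148042877 to 148046969, minus strand (*Foxa2*, ENSMUSG00000037025), and chromosome 7, 19013284 to 19023538, minus strand (*Foxa3*, ENSMUSG00000040891). *Hnf4a* (ENSMUSG00000017950) lies at chromosome 2, 163506808 to 163572910, plus strand, and *Pdx1* (ENSMUSG00000029644) at chromosome 5, 147269959 to 147275848, plus strand. *Gata6* (ENSMUSG00000005836) is on chromosome 18, *Sox9* (ENSMUSG00000000567) at chromosome 11, 112782224 to 112787760, plus strand, and *Nr5a2* (ENSMUSG00000026398) at chromosome 1, 136842571 to 136960448, minus strand, all in GRCm38. An antisense gene, *Hnf4aos*, overlaps *Hnf4a*. It was at 0 to 0.294 CPM, and whether counting used the strand of the kit is not given in the sources used here.

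**Figure D1:**
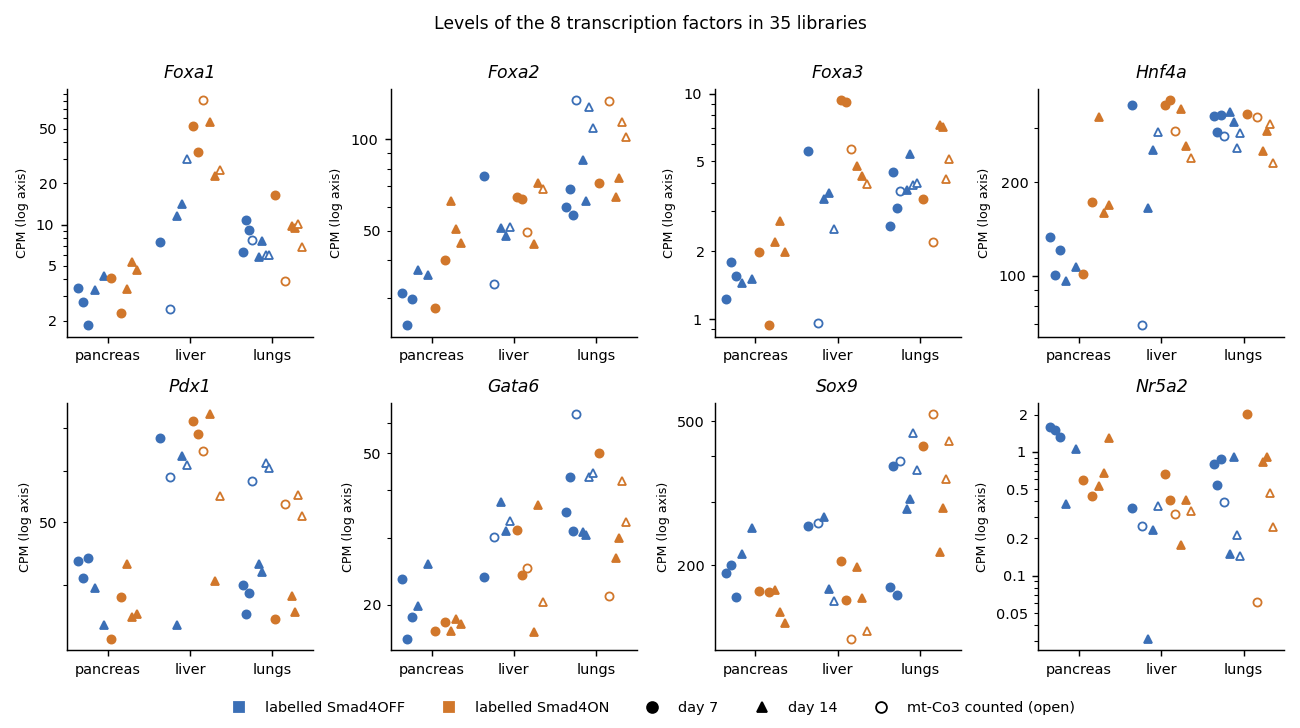
CPM of each of the 8 genes (log axis) in each of the 35 libraries, by organ, with blue for libraries labelled Smad4OFF and orange for Smad4ON, circles for day 7, triangles for day 14 and open symbols for libraries with mt-Co3 counts. Foxa1 ran from 1.85 to 5.35 CPM in the pancreas and up to 80.8 CPM in the liver, and every lung library lay above every pancreas library for Foxa2 within each label.

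Organ comparisons held the label fixed and asked how far the identity factors differed between primary tumors and metastases. *Foxa1*, the forkhead factor with the widest spread, was higher in liver metastases than in primary tumors under both labels. *Foxa3* was higher in the liver under Smad4ON, and under Smad4OFF its result depended on the method and the libraries used. All 3 *Foxa* genes were higher in lung metastases than in primary tumors under both labels. *Hnf4a* was higher in the lungs than in primary tumors under Smad4OFF, *Sox9* was higher in the lungs than in both other organs under Smad4ON, and *Nr5a2* was lower in the liver than in primary tumors under Smad4OFF. Calls required more than a 2-fold difference together with an adjusted P below 0.05 in edgeR. The fibroblast, acinar and tumor epithelium markers given above moved with these comparisons. So did markers of the host organs. The hepatocyte markers summed to 672 to 1075 CPM in the liver and 72.0 to 140 CPM in the pancreas under Smad4ON, without overlap, and to 82.6 to 500.1 CPM and 70.9 to 105 CPM under Smad4OFF. In the lungs they summed to 94.5 to 509 CPM under Smad4ON and 146 to 451 CPM under Smad4OFF. Most of the sum was *Apob*, with medians of 631 CPM in the liver, 86.6 CPM in the pancreas and 284 CPM in the lungs. The medians of *Alb* were 9.44, 0.145 and 0.104 CPM in the same order. The lung epithelium markers summed to 137 to 504 CPM in the lungs and 8.16 to 22.2 CPM in the pancreas under Smad4OFF, and to 137 to 786 CPM and 20.0 to 64.7 CPM under Smad4ON, without overlap in either. The part of these markers in the organ differences was not tested. Among libraries labelled Smad4OFF, liver against pancreas called 1 of the 8 genes higher and 1 lower, where 8.68% of 16606 genes were called, 5.25% higher and 3.43% lower. Lungs against pancreas called 4 higher and 0 lower, where 18.4% were called and 10.8% were called higher. Liver against lungs called 0 of the 8, where 3.95% were called. Among libraries labelled Smad4ON, liver against pancreas called 2 higher where 22.2% of 16751 genes were called and 10.8% were called higher. Lungs against pancreas called 4 higher where 13.6% were called and 6.42% were called higher. Liver against lungs called 1 higher and 1 lower, where 10.3% were called, 5.23% higher and 5.04% lower. The share of the 8 genes called in liver against pancreas, 2 of 8 under each label, stands near that background under Smad4ON. How many of all genes had ranges without overlap between organs was not computed. A lack of overlap between organs is therefore only a description of the gene named.

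*Foxa1* was at 3.45, 2.71 and 1.85 CPM on day 7 and 3.34 and 4.26 CPM on day 14 in primary tumors labelled Smad4OFF. In liver metastases with the same label it was at 7.51 and 2.42 CPM on day 7 and 11.6, 14.2 and 30.1 CPM on day 14. All liver libraries but the paired-end one, at 2.42 CPM, lay above the pancreas. The log2 difference was 1.86 ± 0.45 (SE; adjusted P = 0.0139), and 2.27 without the paired-end library (adjusted P = 0.000244). Among libraries labelled Smad4ON, *Foxa1* was at 4.09, 2.26, 3.41, 5.35 and 4.67 CPM in the pancreas. In the liver it was at 52.8, 34.1 and 80.8 CPM on day 7 and 56.0, 22.7 and 25.0 CPM on day 14, so that the lowest liver library lay above the highest pancreas library. The difference was 3.40 ± 0.41 on the log2 scale (adjusted P = 1.1e-05), and it was called without any 1 of the 17 libraries. In the lungs the level ran from 5.85 to 10.8 CPM (median 6.98, n = 8) under Smad4OFF and from 3.91 to 16.6 CPM (median 9.63, n = 6) under Smad4ON. Lungs against pancreas gave 1.24 ± 0.40 (adjusted P = 0.0239) and 1.24 ± 0.38 (adjusted P = 0.0237). The first of these calls was lost without replicate 2 or 3 of the pancreas on day 7 or replicate 1 on day 14, with adjusted P of 0.052, 0.0648 and 0.0527. The second was lost without replicate 1 or 2 of the pancreas or replicate 1 of the lungs on day 7 or replicate 1 of the pancreas on day 14, with adjusted P of 0.0543, 0.0743, 0.0585 and 0.0525. Liver against lungs was called under Smad4ON only, at 2.16 ± 0.36 (adjusted P = 0.000856), against 0.62 ± 0.40 under Smad4OFF (adjusted P = 0.405), and the difference between those 2 values was not tested over both days.

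*Foxa2*, which is needed for endoderm and is active in the foregut, was at 24.4 to 37.0 CPM in the 5 primary tumors labelled Smad4OFF (median 31.2) and at 56.2 to 135 CPM in the 8 lung libraries (median 77.1), with no overlap. The log2 difference was 1.43 ± 0.25 (adjusted P = 0.000512). Under Smad4ON the pancreas ran from 27.9 to 62.6 CPM (median 45.6) and the lungs from 64.7 to 134 CPM (median 88.4), again with no overlap and a difference of 1.04 ± 0.23 (adjusted P = 0.0032). This value sits at the fold threshold: it was 0.60 among libraries without *mt-Co3* counts (adjusted P = 0.0463), and it fell under a fold of 2 without replicate 1 or 2 of the pancreas or replicate 2 of the lungs on day 7, or replicate 3 of the lungs on day 14, at 0.93, 1.00, 0.85 and 0.98. *Foxa3*, a forkhead factor of liver and gut, was at 1.23 to 1.79 CPM in the pancreas and 2.60 to 5.42 CPM in the lungs under Smad4OFF, at 1.31 ± 0.32 (adjusted P = 0.00521). In the liver with that label it was at 0.961 to 5.55 CPM, and liver against pancreas was not called. DESeq2 called that difference (1.07, adjusted P = 0.0207), and so did edgeR without the paired-end library (1.31, adjusted P = 0.00149). Under Smad4ON *Foxa3* was at 0.939 to 2.71 CPM in the pancreas, 3.97 to 9.33 CPM in the liver and 2.20 to 7.27 CPM in the lungs. Liver and pancreas did not overlap there (1.65 ± 0.37, adjusted P = 0.00194), whereas lungs and pancreas did (1.28 ± 0.36, adjusted P = 0.0144). Both *Foxa3* calls under Smad4ON stood without any 1 of the 17 libraries.

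*Hnf4a* was at 96.3 to 133 CPM in primary tumors labelled Smad4OFF (median 107, n = 5) and at 259 to 338 CPM in the lungs (median 302, n = 8), a log2 difference of 1.41 ± 0.27 (adjusted P = 0.00092) that was called without any 1 library. In the liver it was at 356 and 69.2 CPM on day 7 and 165, 254 and 290 CPM on day 14. The lowest of these, 69.2 CPM, was the paired-end library, and the other 4 lay above all 5 pancreas libraries. The liver difference of 0.98 ± 0.29 missed the fold threshold (adjusted P = 0.0328) and was 1.30 without that library (adjusted P = 3.71e-05). Under Smad4ON the pancreas reached 325 CPM in replicate 1 of day 14, and the differences were 0.67 ± 0.23 for the liver (adjusted P = 0.0268) and 0.63 ± 0.22 for the lungs (adjusted P = 0.0466), both under a fold of 2.

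*Gata6* was at 16.2 to 25.5 CPM in the pancreas and 30.4 to 63.3 CPM in the lungs under Smad4OFF, and at 17.0 to 18.4 CPM and 21.1 to 50.0 CPM under Smad4ON, without overlap in either. The lung differences of 0.93 ± 0.19 (adjusted P = 0.00143) and 0.92 ± 0.21 (adjusted P = 0.0047) passed the P threshold and not the fold. *Pdx1* ranged from 33.0 to 73.5 CPM, the smallest ratio of highest to lowest among the 8 genes. Its differences were under a fold of 2 in every organ comparison, and the one past the P threshold was liver against pancreas under Smad4ON, at 0.66 ± 0.17 (95% interval 0.31 to 1.02, adjusted P = 0.00447). *Sox9* did not follow the *Foxa* genes. Under Smad4ON it was at 139 to 171 CPM in the pancreas, 125 to 206 CPM in the liver and 217 to 523 CPM in the lungs. The lungs overlapped with neither organ, at 1.22 ± 0.19 over the pancreas (adjusted P = 0.000235), and liver against lungs was -1.27 ± 0.18 (adjusted P = 0.000275). Among libraries without *mt-Co3* counts both fell under a fold of 2, at 0.92 and -0.83 (adjusted P = 0.00095 and 0.00665). Liver against pancreas had an interval of -0.44 to 0.34 for *Sox9*. *Nr5a2*, the acinar factor, was at 0.379 to 1.58 CPM in the pancreas under Smad4OFF (median 1.31, n = 5) and at 0.0308 to 0.367 CPM in the liver (median 0.251, n = 5). These did not overlap, and the difference was -2.09 ± 0.57 (adjusted P = 0.0226). The call was lost without replicate 1 of the liver on day 7 (adjusted P = 0.0601) or replicate 2 of the pancreas on day 14 (adjusted P = 0.0896). The summed acinar markers in these pancreas libraries were 1134 to 4167 CPM, against 5.32 to 482 CPM in the liver, and their part in the *Nr5a2* difference was not tested.

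**Figure D2:**
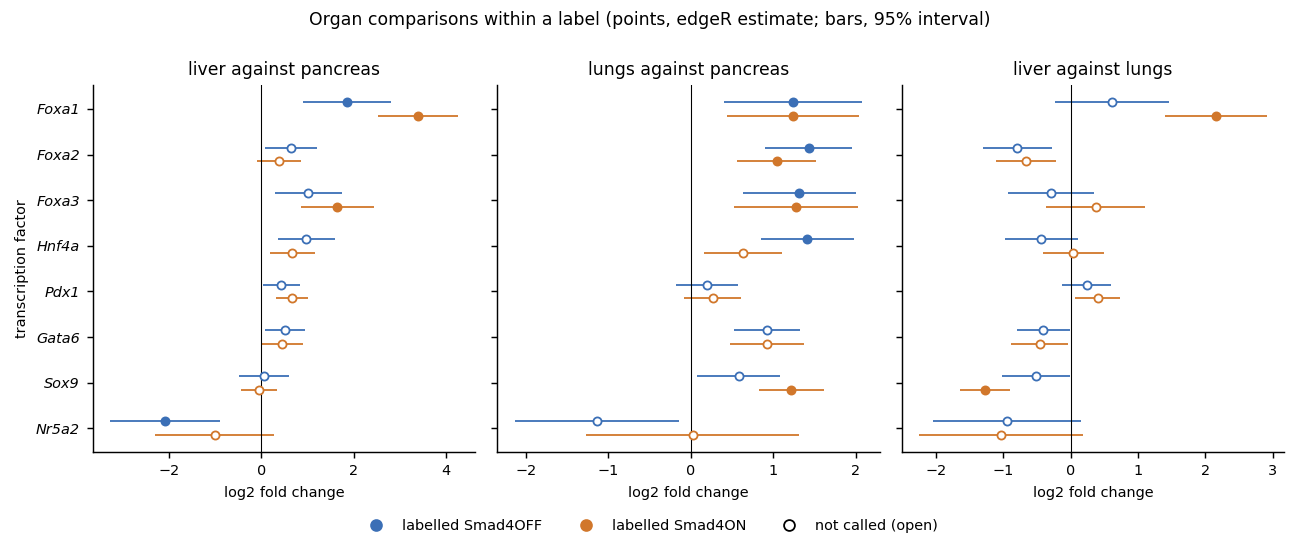
Log2 fold change of each gene between organs (x axis) within libraries labelled Smad4OFF (blue) and Smad4ON (orange), with 95% intervals as bars. Filled points are called at a fold over 2 and an adjusted P under 0.05. The largest value is Foxa1 in liver against pancreas under Smad4ON, at 3.40, and Sox9 in liver against lungs under Smad4ON is at -1.27.

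Since the summed tumor epithelium markers also differed between organs, each gene was set against them, as CPM per 1000 CPM of the 6 markers. On this scale, chosen after seeing the data, the order of the organs changed. Under Smad4OFF *Foxa2* was at 7.73 to 9.62 in the pancreas and 7.13 to 11.6 in the lungs, and under Smad4ON at 8.06 to 9.24 and 7.00 to 12.8, so the ranges that had been apart in CPM within each label overlapped. In the liver *Foxa2* had a median of 3.77 (3.05 to 8.75, n = 11). For pancreas, liver and lungs, *Hnf4a* had medians of 33.3, 18.8 and 31.8, and *Gata6* of 4.54, 2.04 and 3.71. *Sox9* was at 22.2 to 79.0 in the pancreas and 23.1 to 56.4 in the lungs, with a median of 11.5 in the liver. *Foxa1* in the liver under Smad4ON kept its place above the pancreas, at 1.44 to 5.18 (median 2.73, n = 6) against 0.443 to 1.18 in the pancreas under the same label, without overlap. Under Smad4OFF the *Foxa1* medians were 0.694 in the liver (0.598 to 2.13), 0.916 in the pancreas and 0.768 in the lungs. *Nr5a2* lay lower in the liver than in the pancreas without overlap, at 0.00185 to 0.0658 against 0.0694 to 0.590. These ratios are a description with no test, the markers in the denominator may themselves differ between organs, and the paired-end library had the highest liver ratio for *Pdx1*, *Foxa2*, *Gata6*, *Sox9* and *Nr5a2*.

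**Figure D3:**
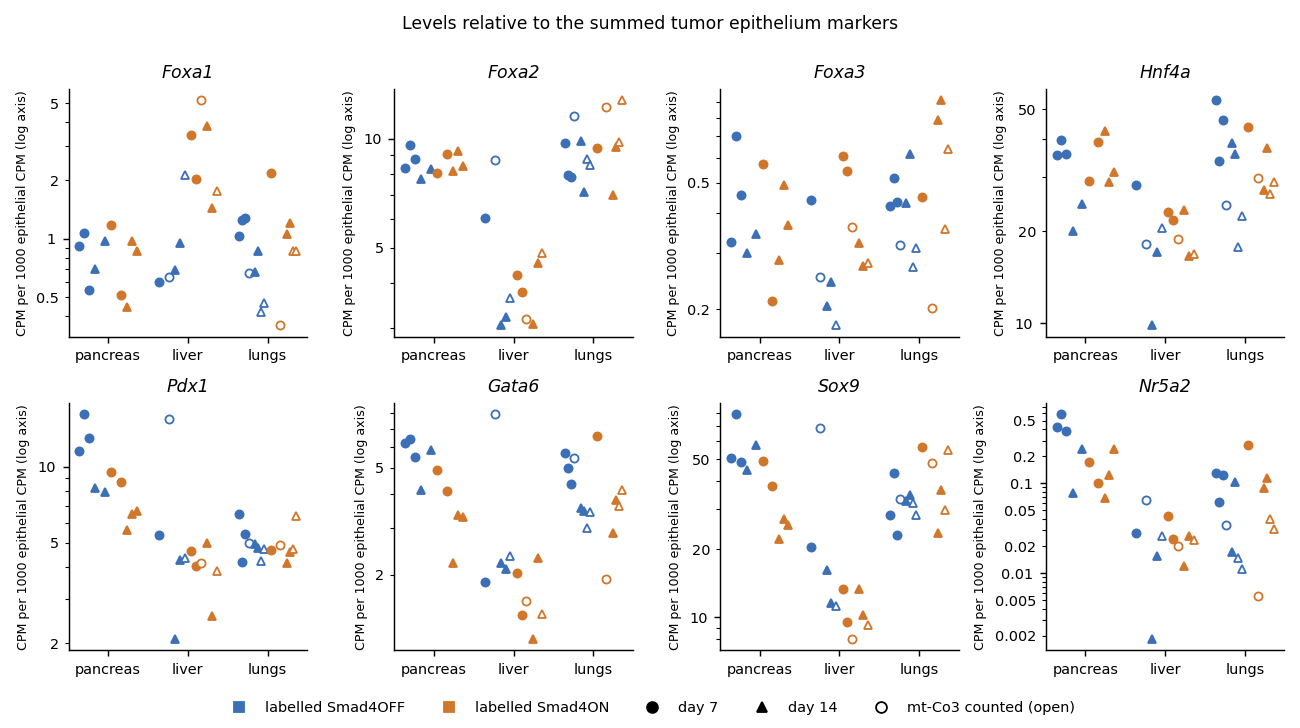
The same 35 libraries as CPM per 1000 CPM of the 6 summed tumor epithelium markers (log axis), with colors and symbols as in the plot of CPM by library. Foxa2 overlaps between pancreas (7.73 to 9.62) and lungs (7.00 to 12.8) over both labels, and Foxa1 in the liver labelled Smad4ON lies at 1.44 to 5.18.

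The label comparisons asked how the factors differed between the 2 *Smad4* arms in each organ. In all 6 comparisons by organ and day, and in the 3 over both days, 0 of the 8 genes were called. The background differed. For pancreas, liver and lungs, 1.33%, 0.444% and 0% of genes were called on day 7, 4.64%, 0% and 0.0271% on day 14, and 4.08%, 5.67% and 0.173% over both days. On day 14 in the liver and lungs 7 genes were tested, since *Nr5a2* did not pass the filter on low counts. At an unadjusted P under 0.05, without any fold, 793 of 15193 genes in the lungs on day 7 and 1447 of 14947 in the liver on day 14 were found, and DESeq2 called 112 and 339 genes there.

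*Foxa1* had the largest value. In the liver on day 7 it was at 7.51 and 2.42 CPM in the libraries labelled Smad4OFF and at 52.8, 34.1 and 80.8 CPM in those labelled Smad4ON. The *Foxa1* groups did not overlap. *Foxa3* lay above without overlap as well, and *Sox9* lay below, at 125 to 206 CPM under Smad4ON against 256 to 262 CPM. That makes 2 of 8 genes above and 1 below, where 46% of all genes did not overlap. The *Foxa1* log2 difference was 3.40 ± 0.67 (95% interval 1.71 to 5.09) with an adjusted P of 0.0689 in edgeR, and DESeq2 gave 3.40 and 3.17e-06. Leaving out replicate 1 labelled Smad4OFF gave 4.49 (adjusted P = 0.0138), and leaving out the paired-end library, replicate 2, gave 2.80 (adjusted P = 0.0575). Each of these leaves a group with 1 library, which is assumed to vary like the others. On day 14 *Foxa1* was at 11.6, 14.2 and 30.1 CPM under Smad4OFF and at 56.0, 22.7 and 25.0 CPM under Smad4ON, with overlap and a difference of 0.86 ± 0.48 (adjusted P = 0.623). Over both days the difference was 1.90 ± 0.62 (adjusted P = 0.0791), and 2.32 without replicate 3 labelled Smad4OFF of day 14 (adjusted P = 0.0261). The hepatocyte markers moved in the same direction, as 12 of them summed to 82.6 to 500.1 CPM in the liver libraries labelled Smad4OFF and to 672 to 1075 CPM in those labelled Smad4ON. Most of that sum was *Apob*, an apolipoprotein that other epithelia also make, at 80.5 to 993 CPM over the liver libraries. *Alb*, the main secreted protein of hepatocytes, was at 0.794 to 16.6 CPM in these libraries. It was at 0 to 0.753 CPM in the pancreas and 0 to 0.465 CPM in the lungs. On day 7 in the liver, the tumor epithelium markers summed to 3810 and 12575 CPM under Smad4OFF and 15424 to 16853 CPM under Smad4ON, and the 8 immune markers to 27.4 and 28.8 CPM against 84.0 to 108 CPM. The 10 lung epithelium markers summed there to 10.3 and 36.9 CPM against 154 to 334 CPM, most of it from *Sftpd*, a collectin that other epithelia also make. None of these sums overlapped between the labels on day 7, and their part in the *Foxa1* difference was not tested.

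In the pancreas on day 14, *Foxa2* was at 37.0 and 35.9 CPM under Smad4OFF and at 62.6, 50.8 and 45.6 CPM under Smad4ON. The difference of 0.62 ± 0.13 had an adjusted P of 0.0207, below a fold of 2. *Sox9* was at 215 and 253 CPM under Smad4OFF and at 171, 149 and 139 CPM under Smad4ON, -0.53 ± 0.12 (adjusted P = 0.0215). *Hnf4a* was at 96.3 and 107 CPM against 325, 159 and 169 CPM, at 1.18 ± 0.37 (adjusted P = 0.123). *Foxa2*, *Hnf4a* and *Foxa3* did not overlap between the labels in the upward direction and *Gata6* and *Sox9* in the downward direction, which makes 5 of 8 genes where 49.6% of all genes did not overlap. Over both days *Foxa2* gave 0.44 ± 0.13 (adjusted P = 0.0484) and *Sox9* -0.33 ± 0.10 (adjusted P = 0.0541). On day 7 in the pancreas *Nr5a2* was at 1.31 to 1.58 CPM (n = 3) against 0.594 and 0.442 CPM, at -1.47 ± 0.41 (adjusted P = 0.102). These groups did not overlap, nor did those of *Pdx1*, which makes 2 of 8 genes where 43.4% of all genes did not overlap. The acinar markers in the pancreas summed to 2247 to 3742 CPM under Smad4OFF and 842 to 1213 CPM under Smad4ON on day 7, without overlap, and to 1134 to 4167 CPM and 1976 to 2584 CPM on day 14. The fibroblast markers did not overlap on day 7 either, at 12562 to 17126 CPM and 23545 to 25166 CPM. The tumor epithelium markers summed to 2538 to 3763 CPM and 3466 to 4416 CPM on day 7, and on day 14 to 4361 to 4794 CPM and 5414 to 7699 CPM, without overlap. Their part in the pancreas differences was not tested. Relative to the epithelial markers, *Foxa2* over both days was at 7.73 to 9.62 in the pancreas under Smad4OFF. Under Smad4ON it was at 8.06 to 9.24, and no test was run on this scale.

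In the lungs, the intervals of the label difference over both days were -0.46 to 0.27 for *Pdx1*, -0.26 to 0.17 for *Hnf4a*, -0.47 to 0.64 for *Foxa2* and -0.69 to 0.24 for *Gata6*. *Foxa1* on day 14 was at 5.85, 7.58, 6.06 and 6.00 CPM under Smad4OFF and 9.79, 9.46, 10.1 and 6.89 CPM under Smad4ON, at 0.50 ± 0.18 (adjusted P = 0.399). A fit in edgeR with mouse numbers as a block gave 0.49 (adjusted P = 0.254). A shared mouse number need not mark a pair, as the paper randomized mice to the arms. *Sox9* on day 7 was at 174, 376, 166 and 388 CPM against 428 and 523 CPM, at 0.81 ± 0.44 (adjusted P = 0.998). These did not overlap, as was true for 11.7% of all genes. On day 14, 1 of 7 genes tested (*Foxa3*) did not overlap between the labels in the liver, where 14.9% of all genes did not, and 0 in the lungs, where 5.64% did not.

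**Figure D4:**
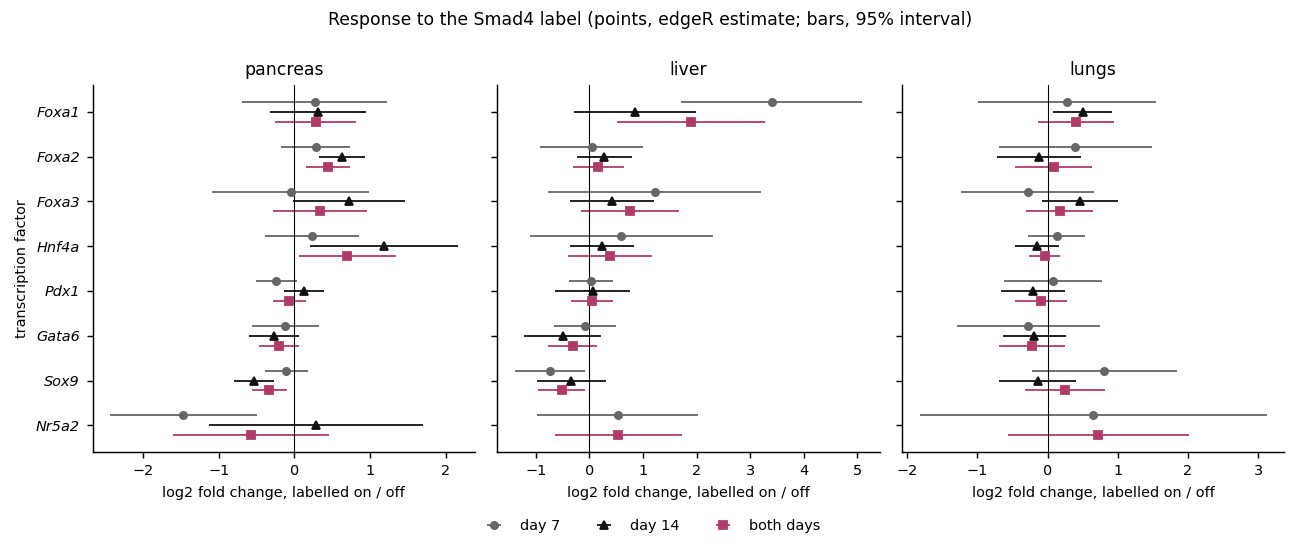
Log2 fold change of each gene between labelled Smad4ON and Smad4OFF libraries (x axis, points) with 95% intervals (bars), by organ, for day 7 (circles), day 14 (triangles) and both days (squares). Foxa1 in the liver on day 7 is at 3.40, with an interval of 1.71 to 5.09, and most other intervals include 0.

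Differences of the label response between organs were tested as interaction contrasts. For *Foxa1* on day 7, the liver response exceeded the lung response by 3.19 ± 0.85 (adjusted P = 0.0361), the 1 call among the 8 genes where 8.48% of 16513 genes were called and 4.87% were called higher. It was lost without any 1 of 6 libraries. These were replicate 2 labelled Smad4OFF (the paired-end library, 2.58, adjusted P = 0.111) and replicates 1 and 3 labelled Smad4ON in the liver (3.24 and 2.86, adjusted P = 0.058 and 0.0725), and replicates 2 and 3 labelled Smad4OFF and 2 labelled Smad4ON in the lungs (3.06, 3.18 and 2.49, adjusted P = 0.0565, 0.0663 and 0.121). Among libraries without *mt-Co3* counts it was 1.61 (adjusted P = 0.126), which leaves 1 liver library labelled Smad4OFF and 1 lung library labelled Smad4ON, assumed to vary like the others. Liver minus pancreas for *Foxa1* was 3.20 ± 0.88 (adjusted P = 0.0775), with 0 of 8 genes called where 1.62% were, and lungs minus pancreas was 0.00 ± 0.91, with 0% called by edgeR (1322 genes at an unadjusted P under 0.05) and 45 genes by DESeq2. For *Sox9*, liver minus lungs was -1.50 ± 0.47 (adjusted P = 0.0647). On day 14 the 3 contrasts called 0 of the 8 genes where 0%, 0.00591% and 0% were called by edgeR for liver minus pancreas, lungs minus pancreas and liver minus lungs. At an unadjusted P under 0.05 there were 809, 778 and 767 genes, and DESeq2 called 27, 36 and 5. On that day lungs minus pancreas was -1.28 ± 0.36 for *Hnf4a* (adjusted P = 0.534). Day 14 against day 7 with the label held fixed called 0 of the 8 genes under either label, where 0% of genes were called by edgeR and 7 and 38 by DESeq2, and 1238 and 1258 genes had an unadjusted P under 0.05. *Foxa1* gave 0.41 ± 0.34 under Smad4OFF and -0.21 ± 0.30 under Smad4ON.

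Within the lungs, libraries with *mt-Co3* counts stood apart for *Pdx1* and *Foxa2*. The share of all genes without such an overlap was not computed. *Pdx1* was at 51.2 to 61.7 CPM in the 6 lung libraries with such counts and at 35.5 to 43.1 CPM in the 8 without, and *Foxa2* was at 102 to 135 CPM against 56.2 to 85.5 CPM, neither overlapping. *Sox9* was at 347 to 523 CPM against 166 to 428 CPM, and *Nr5a2* at 0.0611 to 0.470 CPM against 0.150 to 2.01 CPM. *Hnf4a* overlapped, at 231 to 325 CPM against 252 to 338 CPM. So did *Foxa1* (3.91 to 10.1 CPM against 5.85 to 16.6 CPM), *Foxa3* (2.20 to 5.10 CPM against 2.60 to 7.27 CPM) and *Gata6* (21.1 to 63.3 CPM against 26.5 to 50.0 CPM). In the liver *Pdx1* overlapped, at 54.9 to 64.6 CPM in the 4 libraries with such counts and 34.7 to 73.5 CPM in the 7 without. What the 10 libraries share is not given in the labels. The pancreas had none of them, so that lungs against pancreas with the full set mixes both kinds on 1 side only. Among libraries without *mt-Co3* counts, lungs against pancreas under Smad4OFF gave 1.10 for *Foxa2* (adjusted P = 0.000117), 1.56 for *Hnf4a* (adjusted P = 6.35e-06), 1.41 for *Foxa1* (adjusted P = 0.000755) and 1.39 for *Foxa3* (adjusted P = 0.000656).

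Organ accounted for 28.8% (*Nr5a2*) to 61.2% (*Foxa2*) of the sum of squares of log2 CPM over the 35 libraries, where the median over 17667 genes was 23.2%. The label accounted for 0.000364% (*Pdx1*) to 11.9% (*Foxa1*), where the median was 3.92%, and the day for 0.084% to 7.47%. The highest correlations between the 8 genes were those of *Hnf4a* with *Foxa3* (Pearson r = 0.735), *Foxa1* with *Foxa3* (0.720) and *Hnf4a* with *Foxa2* (0.718), over libraries that share organ and label. Within organs they did not hold alike, as *Hnf4a* with *Foxa2* gave 0.838, 0.678 and -0.295 for pancreas, liver and lungs. *Pdx1* and *Foxa2* correlated at 0.888 within the lungs and -0.027 within the pancreas, and both genes were split by *mt-Co3* counts in the lungs. Of all genes, those most like *Foxa1* were *Fam83b* (r = 0.964), *Tnk1* (0.960) and *St14* (0.958), the last encoding an epithelial membrane protease. Those most like *Hnf4a* were *Gata5* (0.924), *Ppl* (0.917) and *Tspan13* (0.915), although *Gata5* correlated at 0.042 within the lungs. For *Foxa2* they were *Slc9a3r2* (0.938), *Sdsl* (0.898) and *Ninj1* (0.897), and for *Foxa3* *Neurl3* (0.906), *Cldn18* (0.889), a claudin of gastric and lung epithelium, and *Lypd8* (0.879). For *Gata6* they were *Foxo6* (0.828), *Tmem151a* (0.807) and *Lama5* (0.785), for *Sox9* *Rasl10a* (0.873), *Rbm38* (0.824) and *Socs2* (0.813), for *Pdx1* *Tubb4b* (0.847), *Sema4b* (0.835) and *Micall2* (0.812), and for *Nr5a2* *Trabd2b* (0.795), *Col14a1* (0.780), a fibril-associated collagen, and *Sirpa* (0.750).

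Other pancreatic and foregut transcription factors, 42 genes, were tested in the same comparisons. This list and those below were chosen with earlier results of these data known, so their counts beside the background are a description. In lungs against pancreas under Smad4OFF 14 of 30 tested were called higher and 1 lower, where 10.8% of all genes were called higher, with a median log2 difference of 1.04 against -0.01 over all genes. *Gata5* (1.93, adjusted P = 0.000141) was higher and *Pax6*, an islet factor, was lower (-4.26, adjusted P = 0.000772). *Nkx2-1*, the factor of lung epithelium, was called higher as well, in libraries where *Sftpc*, a surfactant gene of the lung, was at 34.2 to 303 CPM against 0 in all 10 pancreas libraries. The 10 islet markers summed to 21.1 to 49.8 CPM in the pancreas and 0 to 3.99 CPM in the lungs under Smad4OFF. The part of lung cells and of islet cells in these differences was not tested. In liver against pancreas under Smad4ON 11 of 30 were called higher and 2 lower, where 10.8% of all genes were called higher (median 0.42 against 0.04), with *Elf3*, an epithelial ETS factor, at 2.40 (adjusted P = 8.7e-06), *Klf5*, a factor of gut epithelium, at 1.15 (adjusted P = 1.2e-05) and *Hnf4g* at 3.14 (adjusted P = 2.1e-05). In the pancreas on day 14, 4 of 23 were called higher and 1 lower by label, where 4.64% of all genes were called in either direction. *Hhex*, a foregut homeobox factor, gave 1.73 (adjusted P = 0.0026), *Foxq1* 1.04 (adjusted P = 0.0061), *Spdef*, a factor of mucous cells, 2.27 (adjusted P = 0.0078) and *Pax6* -1.08 (adjusted P = 0.0065).

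The classical PDAC genes, 23 in the table, were called higher in 7 of 18 tested and lower in 0 by label in the pancreas on day 14, where 4.64% of all genes were called in either direction, with a median of 1.51 against 0.02 over all genes. In the same comparison 3 of 13 basal-like genes (median 0.51) and 3 of 20 ductal genes (median 0.55) were called higher and 0 lower. The classical genes called included *Tff2*, a trefoil peptide of mucous epithelium (2.91, adjusted P = 5.4e-05), and *Muc13*, a membrane mucin (2.46, adjusted P = 0.00045). In the liver over both days, where 5.67% of all genes were called, 6 of 20 classical, 0 of 19 basal-like and 1 of 20 ductal genes were called higher, among the classical ones *Muc13* (3.09, adjusted P = 0.013) and *Cldn18* (2.72, adjusted P = 0.027), and in the lungs, where 0.173% were called, 1 of 20 classical genes was called lower, *Ctse* (-2.34, adjusted P = 0.031). In liver against pancreas under Smad4ON 15 of 21 classical and 13 of 19 basal-like genes were called higher, with medians of 2.35 and 3.25 against 0.04 over all genes, and 1 basal-like gene was called lower. Of all genes, 10.8% were called higher there. The basal keratins *Krt5* (12.12, adjusted P = 3.7e-06) and *Krt15* (9.10, adjusted P = 3.7e-06) and *Ly6d* (6.70, adjusted P = 2.3e-06) were higher in the liver, where *Foxa1* was higher too. *Krt5* and *Krt15* had few counts in these pancreas libraries, so the size of their folds is uncertain. Liver against lungs under Smad4ON called 12 of 19 basal-like genes higher, where 5.23% of all genes were called higher, led by *Krt17* (8.10, adjusted P = 3.9e-06), in the same comparison as the 2.16 of *Foxa1*. There 13 of 21 classical genes were also called higher and 1 lower, and 8 of 20 ductal genes were called higher and 4 lower. Ductal genes were called higher in 15 of 20 and lower in 3 in liver against pancreas under Smad4ON, with *Cldn3*, a tight junction claudin, at 4.06 (adjusted P = 2.8e-06) and *Spp1*, a secreted matrix protein, at -2.47 (adjusted P = 4.1e-06).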

How the data were processed

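RNA-seq libraries of sorted tumor cells were analysed from the counts that the authors deposited, the whole numbers of reads assigned to each gene by featureCounts 1.6.3 after trimming with Trimmomatic 0.36 and alignment with STAR 2.5.3a to GRCm38, as given in the paper's methods and the submitters' processing notes. No normalization had been applied. Counts were scaled by TMM and tested with edgeR 4.0.16 (robust quasi-likelihood, R 4.3.3) after filterByExpr (minimum count 10, minimum total 15), with Benjamini-Hochberg adjustment over all genes tested. Calls required more than a 2-fold difference together with an adjusted P below 0.05, thresholds that the study applied with DESeq2 and not with edgeR. Errors of log2 differences are standard errors. Comparisons were of the label by organ and day, of the label over both days with day as a term, of organs and of days within a label, and of label responses between organs, 23 in all. Log2 CPM used a pseudocount of 0.5. Scripts were tested on simulated data. All 8 genes are named, with the 3 genes most correlated with each and up to 4 called genes per list and comparison by adjusted P. One listed gene, one allele of the cells and one motif searched are not reported here. The members and lists were chosen with earlier results of these data known. Alternatives were DESeq2 1.42.0, its size factors, other filters, no fold threshold, a replicate block, leaving out each library, an *mt-Co3* covariate and a single fit of 12 groups, and, added after seeing the data, libraries without *mt-Co3* counts and levels per epithelial marker. In the lungs on day 14, same-numbered libraries deviated together (correlations of 0.465, 0.51, 0.587 and 0.53). Under both labels numbers 1 and 2 had no *mt-Co3* counts there, and numbers 3 and 4 had them. In the other groups the correlations ran from -0.308 to 0.538. The highest was that of number 3 of the liver on day 14, where both libraries had *mt-Co3* counts. The paper randomized mice to the arms, so a shared number need not mark a pair.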

Additional observations from a re-analysis of the deposited data

Results flagged for a closer look

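In 24 tests for a library far from the rest (8 genes in each of the 3 groups of 4 libraries), 2 values stood out, where chance gives about 1 in 20. Both were in replicate 2 of the lungs labelled Smad4OFF on day 14: *Foxa1* was at 7.58 CPM against 5.85 to 6.06 CPM in the others, and *Nr5a2* was at 0.912 CPM against 0.144 to 0.212 CPM. Without this library, *Nr5a2* in lungs against pancreas under Smad4OFF went from -1.14 (adjusted P = 0.0721) to -1.50 (adjusted P = 0.0148). The *Foxa1* response to the label differed between liver and lungs on day 7, by 3.19 on the log2 scale, in the test of the difference itself. That call was lost on leaving out single libraries, the paired-end library among them, as given above.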

How the results depend on the processing

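Counts of the 8 genes called were recomputed in 23 comparisons. Of 516 counts under alternatives, 472 stayed within 1.5 times the value given above and 44 did not. Of 4075 values of single genes, 31 calls were lost, 61 were gained and 1 reversed. In the liver on day 7 the label comparison went from 0 called genes to 1 by DESeq2 and among libraries without *mt-Co3* counts, 2 in a single fit of 12 groups, and 0 to 3 when each library was left out, the 3 (*Foxa1*, *Foxa3* and *Hnf4a*) without replicate 1 labelled Smad4OFF. Without *mt-Co3* libraries that comparison has 1 library labelled Smad4OFF, assumed to vary like the others. In the liver over both days it went from 0 to 1 in those same 3 settings and 0 to 1 on leaving out libraries. Without a fold threshold the pancreas gave 2 on day 14 and 1 over both days, and liver against pancreas under Smad4ON gave 4 in place of 2. Liver against pancreas under Smad4OFF went from 2 to 4 by DESeq2, with DESeq2 size factors, with an *mt-Co3* covariate, without *mt-Co3* libraries and in the single fit, to 1 with the replicate block, and to 1 to 4 on leaving out libraries. Liver against lungs under Smad4OFF gave 0 to 1 on leaving out libraries. The response of liver minus pancreas on day 7 went from 0 to 1 by DESeq2 and in the single fit, and to 0 to 3 on leaving out libraries. That of liver minus lungs on day 7 went from 1 to 2 by DESeq2 and in the single fit, to 0 without a filter on low counts, without *mt-Co3* libraries and with the replicate block, and to 0 to 3 on leaving out libraries. *Nr5a2* in that contrast, at -0.08, ran from -1.05 to 3.85 on leaving out libraries, the highest without replicate 1 of the lungs labelled Smad4ON. Among libraries without *mt-Co3* counts, lungs against pancreas under Smad4ON went from 4 to 2 (2 to 4 on leaving out libraries) and liver against lungs from 2 to 1.

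With mouse numbers as a replicate block, lungs against pancreas under Smad4OFF went from 4 to 2 genes, as *Foxa1* (1.23, adjusted P = 0.0906) and *Foxa3* (1.45, adjusted P = 0.0703) lost their calls, and *Foxa1* in liver against pancreas gave 1.29 (adjusted P = 0.13). In the lungs on day 14, where same-numbered libraries deviated together, the block moved the calls over all genes from 4 to 109 and called 0 of the 8 genes. The labels do not say that a shared number marks a pair. Over all genes, DESeq2 called 2887 in the liver on day 7 against 71 by edgeR and 2153 over both days against 959, 539 against 192 in the pancreas on day 7, and 112, 339 and 214 against 0, 0 and 4 in the lungs on day 7, the liver on day 14 and the lungs on day 14. The causes were not tested. With 2 to 4 libraries a group, *Nr5a2* at 1 to 32 counts and label differences in the liver are the least certain, and the *mt-Co3* covariate could not be fitted in the label comparisons of the pancreas, which held no such library.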
